A study of Mus musculus with 6 samples.

Results

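Pericytes are the mural cells wrapped around capillaries, and the genes described here are 10 that are commonly used to recognise them: Pdgfrb, Rgs5, Kcnj8, Abcc9, Cspg4, Notch3, Mcam, Anpep, Vtn and Higd1b. They were taken by name from a table of 22964 genes, identified there by Ensembl gene identifiers and matched to symbols in GENCODE M21. Of the 10, 9 have a row in that table and all 9 passed the filter on low counts, while Higd1b has no row and is not analysed here. The samples were lymphatic endothelial cells of the meninges (the membranes that cover the brain), sorted as cells negative for the leukocyte protein CD45 and positive for the endothelial protein CD31 and for podoplanin. There were 3 samples from old mice aged 20 to 24 months and 3 from young mice aged 2 to 3 months, all untreated, wild-type, male C57BL/6J. Old and young mice came from Jackson Labs or the NIH/NIA and were housed alike, but which sample had which source, and whether a sample was 1 animal or a pool, is not stated. P-values therefore reflect the spread among these 6 samples alone, and that spread may be technical.

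Pericytes share the basement membrane of the endothelium and are recruited by platelet-derived growth factor B, which endothelial cells release and the receptor encoded by Pdgfrb binds. Notch ligands on the endothelium act on the receptor encoded by Notch3 in pericytes and smooth muscle cells. A potassium channel opened by falling ATP, made of a pore (Kcnj8) and a sulfonylurea receptor subunit (Abcc9), sets the membrane potential of these cells. Pericytes lack the CD31 protein used for this sort, and lymphatic capillaries are largely without them. In bulk samples, fewer cells of a type and less RNA per cell cannot be told apart.

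The pericyte marker genes did not move as 1 block with age. Mcam, which encodes the adhesion molecule CD146 of mural and endothelial cells, was higher in every old sample than in every young sample, and so was Abcc9. Vtn, which encodes the matrix glycoprotein vitronectin, was lower in every old sample than in every young sample. The other 6 genes overlapped between the ages, with Rgs5, Notch3 and Kcnj8 on average higher and Pdgfrb, Anpep and Cspg4 on average lower in old cells. No gene passed the edgeR quasi-likelihood test after Benjamini-Hochberg adjustment over the 15394 genes tested: 0 were called at 0.05, a background of 0%, and the lowest adjusted p in edgeR was 0.235. Without adjustment, edgeR counted 856 genes at p under 0.05, or 5.56% of those tested, while DESeq2 called 130 genes and limma-voom 3 after adjustment. Of the 9 members, 2 were higher and 1 lower at that unadjusted level, where the background was 2.86% higher and 2.7% lower. The age groups did not overlap for those same 3 members, Mcam and Abcc9 above and Vtn below, where 5.56% of all genes lay wholly above and 6.44% wholly below.

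**Figure D1:**
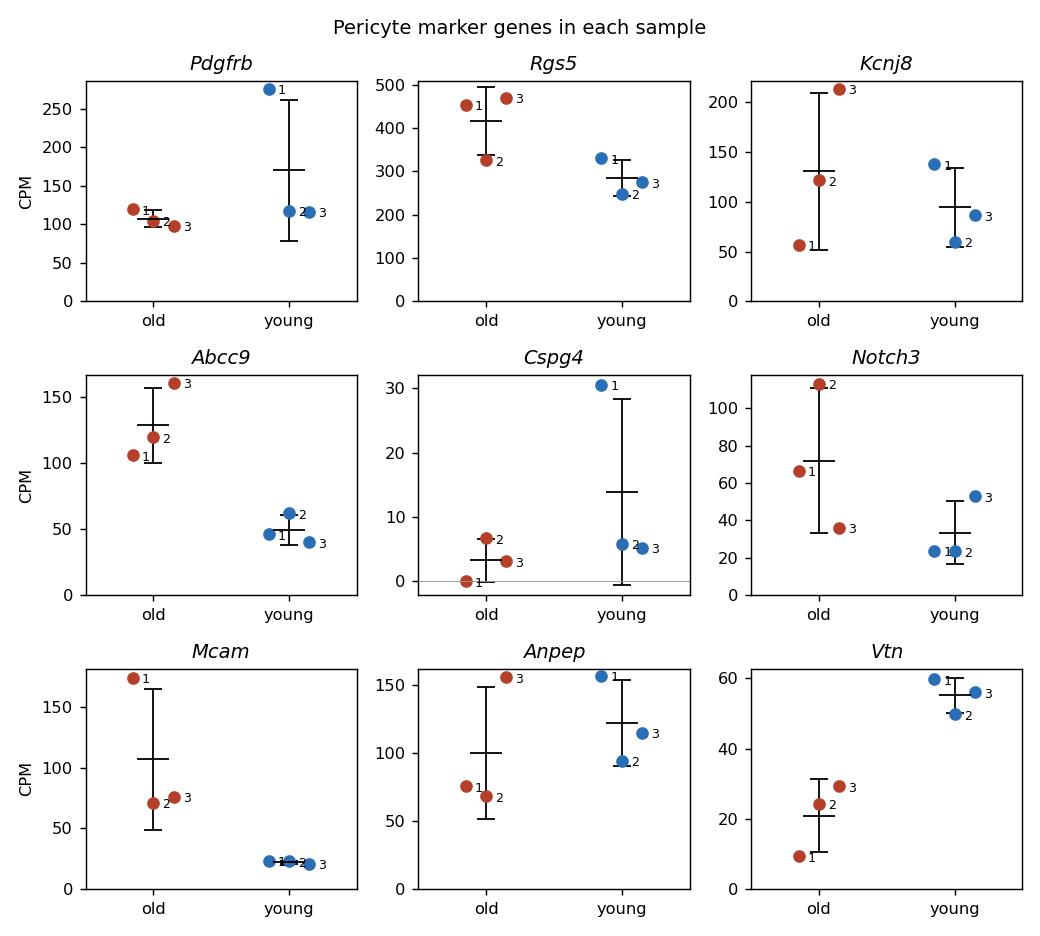
Level of each of the 9 measured pericyte marker genes in CPM, counts per 1000000 after TMM scaling of the library size (vertical axis), in 3 old and 3 young samples; points are samples with their number, and bars are mean ± SD. Mcam and Abcc9 lie higher in all old samples and Vtn lies lower, while young sample 1 stands above the rest for Pdgfrb and Cspg4.

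The upstream sequences of these 3 genes, and of Kcnj8, the neighbour of Abcc9, are shown as the stretches before the genes whose levels the comparison turns on. They come from RefSeq (GRCm38.p6), where 8 of the 10 members had an entry, and each is cut to the bases upstream of the start in both RefSeq and GENCODE M21. All read 5′ to 3′ on the strand of the gene. Capitals mark motifs found on either strand, and overlapping matches run together. The RBPJ core, bound by the DNA-binding partner of Notch, is written TGGGAA. The GC box has the letters GGGCGG. The TATA box is spelled TATAAA.
Abcc9: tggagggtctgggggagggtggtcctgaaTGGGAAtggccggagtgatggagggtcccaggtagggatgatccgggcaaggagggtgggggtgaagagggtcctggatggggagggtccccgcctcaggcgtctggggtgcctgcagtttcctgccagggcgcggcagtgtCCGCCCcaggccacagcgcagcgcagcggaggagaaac
Kcnj8: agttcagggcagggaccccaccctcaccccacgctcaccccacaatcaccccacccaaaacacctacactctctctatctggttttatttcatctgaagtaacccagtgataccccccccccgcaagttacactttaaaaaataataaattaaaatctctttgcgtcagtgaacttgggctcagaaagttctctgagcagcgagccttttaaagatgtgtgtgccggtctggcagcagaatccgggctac
Mcam: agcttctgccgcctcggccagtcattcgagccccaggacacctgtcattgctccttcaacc
Vtn: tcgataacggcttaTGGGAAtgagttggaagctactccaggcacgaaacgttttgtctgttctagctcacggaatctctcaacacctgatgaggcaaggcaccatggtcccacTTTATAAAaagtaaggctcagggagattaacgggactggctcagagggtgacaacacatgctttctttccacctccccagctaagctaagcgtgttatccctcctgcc

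The stretch of Abcc9 lies at chr6:142702316-142702524, Kcnj8 at chr6:142571615-142571864, both on the minus strand, Vtn at chr11:78498870-78499090 and Mcam at chr9:44134408-44134468, both on the plus strand. In the 300-base windows of the table, which run from 250 bases before to 50 after the RefSeq start, TGGGAA was found 1 time for Abcc9, 1 time for Kcnj8 and 3 times for Vtn, and was not found for Mcam. It occurs in 25.6% of all 32851 windows. GGGCGG was found 5 times for Mcam and 1 time for Abcc9, and occurs in 35.7% of windows, and TATAAA was found for Vtn, as 2 overlapping matches, and occurs in 13.6%. All matches of Mcam, that of Kcnj8 and those of Vtn after the RefSeq start lie outside the stretches shown. The CArG box, the site of serum response factor, occurs in 1.63% of windows and in none of the 8 members' windows. A match describes letters in a window and is no evidence of binding.

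Abcc9 (ENSMUSG00000030249; chromosome 6, 142587862 to 142702315, minus strand, GRCm38) encodes SUR2, the regulatory subunit of the vascular ATP-sensitive potassium channel. It had 106, 119 and 161 CPM in old samples 1, 2 and 3, against 46.2, 62.0 and 39.8 CPM in young samples 1, 2 and 3. The lowest old sample was well above the highest young one. The means were 129 ± 28.5 CPM in old and 49.3 ± 11.4 CPM in young cells (SD, n = 3 each), a ratio of 2.61. The log2 fold change was 1.38 (SE 0.37), with an unadjusted p = 0.00467 and an adjusted p = 0.693 in edgeR. It stayed between 1.19 and 1.57 over the 14 alternative settings, each at an unadjusted p under 0.05, and DESeq2 gave an adjusted p = 0.0432. Over those settings the adjusted p ran from 0.0432 to 0.9999.

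Kcnj8 (ENSMUSG00000030247; chromosome 6, 142564837 to 142571614, minus strand) encodes Kir6.1, the pore of the same channel, and lies 16247 bases from Abcc9 with no annotated gene between them. It had 56.8, 122 and 213 CPM in old samples 1, 2 and 3, against 138, 59.8 and 86.4 CPM in young samples 1, 2 and 3. The 3 old samples alone span both the lowest and the highest level, so the ages overlap fully. The log2 fold change was 0.46 (SE 0.52; unadjusted p = 0.394 and adjusted p = 0.952, edgeR), and it was −0.086 without old sample 3. The ratio of Kcnj8 to Abcc9 CPM within a sample was 0.537, 1.02 and 1.33 in old samples 1, 2 and 3, against 2.99, 0.966 and 2.17 in young samples 1, 2 and 3. The pair of channel genes thus did not keep 1 ratio from sample to sample. Of the other channel subunits of this family, Kcnj11 was at 0 counts in every old sample, which allows up to 0.224 CPM, and reached 0.355 CPM at most in young ones, and Abcc8 has no row in the table; Kcnj11 was singled out after its values were seen.

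Mcam (ENSMUSG00000032135; chromosome 9, 44134469 to 44142727, plus strand) showed the largest positive difference among the members. It had 174, 70.9 and 76.1 CPM in old samples 1, 2 and 3, against 23.0, 22.6 and 20.7 CPM in young samples 1, 2 and 3. The young samples were nearly level, while old sample 1 stood above the other old samples. The means were 107 ± 58.0 CPM in old and 22.1 ± 1.23 CPM in young cells (SD, n = 3 each), a log2 fold change of 2.27 (SE 0.49; unadjusted p = 0.00131 and adjusted p = 0.686, edgeR). Without old sample 1 it was 1.73 (unadjusted p = 0.00621, edgeR), and DESeq2 on all samples gave an adjusted p = 0.00217, within a range of 0.00217 to 0.9999 over the 14 alternative settings. The span of Mcam overlaps that of Gm10687, a gene on the other strand, and whether their exons overlap was not examined. Because strandedness is not stated, reads from any shared exon could not be told apart. Gm10687 had 56.6, 26.4 and 26.1 CPM in old samples 1, 2 and 3, against 17.9, 24.7 and 31.1 CPM in young samples 1, 2 and 3. Notch3 is likewise overlapped by Gm17276, which had at most 1.71 CPM in old and 1.395 CPM in young samples, and the genes that overlap Abcc9 and Anpep have no row.

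Smooth muscle and blood endothelial markers were measured beside Mcam and Abcc9. Of 13 smooth muscle markers tested, 12 had a positive log2 fold change, 3 lay wholly higher in old cells, 2 were higher at an unadjusted p under 0.05 and 0 were called by edgeR after adjustment. Over all genes tested, 51% were positive, 5.56% lay wholly higher and 2.86% were higher at that p. Old sample 1 had the highest level of each of these markers except Lmod1 and Tpm2. Synpo2 had 123, 14.5 and 5.57 CPM in old samples 1, 2 and 3, against 14.5, 19.1 and 26.2 CPM in young samples 1, 2 and 3. Smtn was more even, at 410, 254 and 397 CPM in those old samples. Lmod1, Tpm2 and Synpo2 were singled out after their values were seen. The smooth muscle markers summed to 963 to 2873 CPM in old and 632 to 1177 CPM in young samples, which overlap. Old sample 1 held the highest sum, with Myh11, the smooth muscle myosin, at 668, 67.8 and 65.8 CPM in old samples 1, 2 and 3, against 38.7, 22.3 and 24.0 CPM in young samples 1, 2 and 3. Acta2, smooth muscle actin, had 453, 82.5 and 98.1 CPM in those old samples, against 72.0, 67.4 and 57.0 CPM in those young samples. Both were thus higher in all old samples, most of all in old sample 1, the sample in which Mcam was also highest. Abcc9 had 106 CPM there, against 119 and 161 CPM in old samples 2 and 3. Without old sample 1 the log2 fold change of Myh11 was 1.23, against 3.24 with all samples, and that of Acta2 was 0.46 (unadjusted p = 0.242, edgeR), against 1.69 with all samples. The 14 blood endothelial markers summed to 1477 to 1951 CPM in old and 931 to 1183 CPM in young samples, with no overlap. Of them, 10 of 13 tested were positive, and Vwf (von Willebrand factor), Abcb1a (a drug efflux pump), Cldn5 (a tight junction claudin) and Plvap (a diaphragm protein of fenestrated vessels) had unadjusted p under 0.05, all higher in old cells. The 3 negative ones were Cd34, Itm2a and Spock2. Besides those 4 higher genes, only Emcn did not overlap between the ages. The lymphatic endothelial markers summed to 17079 to 21043 CPM in old and 10781 to 13366 CPM in young samples, also with no overlap. All 9 had a positive log2 fold change, 7 lay wholly higher in old cells and 6 had an unadjusted p under 0.05 in edgeR. The part of these cell types in the levels of Mcam and Abcc9 was not tested.

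**Figure D2:**
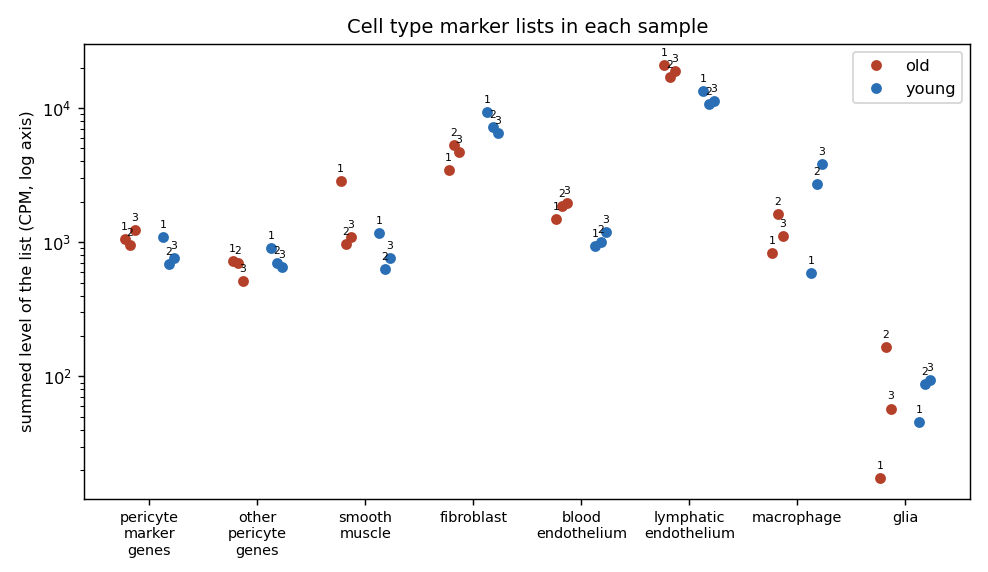
Summed level of each marker list in CPM (vertical axis, log scale) in 3 old and 3 young samples, numbered; lists with no row or a level of 0 for a gene count it as 0. The pericyte marker genes sum to 954 to 1243 CPM in old and 684 to 1085 CPM in young samples, which overlap.

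Among the receptors, Pdgfrb (ENSMUSG00000024620; chromosome 18, 61045150 to 61085061, plus strand) encodes the receptor through which pericytes are recruited, and meningeal fibroblasts express it too. It had 120, 104 and 98.3 CPM in old samples 1, 2 and 3, against 276, 117 and 116 CPM in young samples 1, 2 and 3. All samples but young sample 1 lay close together. The log2 fold change of −0.66 (SE 0.40; unadjusted p = 0.132 and adjusted p = 0.898, edgeR) was −0.12 without young sample 1. Notch3 (ENSMUSG00000038146; chromosome 17, 32120820 to 32166852, minus strand), the Notch receptor of mural cells, had 66.4, 113 and 36.0 CPM in old samples 1, 2 and 3, against 23.6, 23.5 and 53.0 CPM in young samples 1, 2 and 3. Old sample 3 lay below young sample 3, so the ages overlap. The log2 fold change was 1.11 (SE 0.59; unadjusted p = 0.0926 and adjusted p = 0.891, edgeR), and without old sample 2 it was 0.62.

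The endothelial ligands of these receptors were measured in the same samples. Dll4, a Notch ligand of endothelium, had 84.8, 115 and 131 CPM in old samples 1, 2 and 3, against 51.8, 47.1 and 40.5 CPM in young samples 1, 2 and 3. Jag1, the Notch ligand that acts on mural cells, averaged 114 ± 42.8 CPM in old and 59.6 ± 15.5 CPM in young cells (SD, n = 3 each). Neither ligand overlapped between the ages, with log2 fold changes of 1.24 (SE 0.37) for Dll4 and 0.94 (SE 0.41) for Jag1, with unadjusted p = 0.00819 and 0.0468 and adjusted p = 0.754 and 0.888 in edgeR. Dll4 kept an unadjusted p under 0.05 in all 14 alternative settings and Jag1 in 8 of them, with a log2 fold change of 0.59 (unadjusted p = 0.203, edgeR) for Jag1 without old sample 3. Pdgfb, the ligand of the Pdgfrb product, averaged 92.2 ± 51.6 CPM in old and 51.5 ± 13.6 CPM in young cells (SD, n = 3 each), with overlap. Among Notch targets, 2 of 5 tested genes were positive and 3 negative, with a median log2 fold change of −0.28 and 0 at an unadjusted p under 0.05. At an unadjusted p under 0.05 in edgeR, the background was 2.86% of genes higher and 2.7% lower. The 10 ligands and receptors of the members had 2 genes higher at that p, Dll4 and Jag1, and 1 lower. The lower one, below that p in 11 of the 14 alternative settings, was Itgb5, a vitronectin receptor subunit, at 51.0 ± 17.5 CPM in old and 141 ± 76.4 CPM in young cells (SD, n = 3 each).

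Rgs5 (ENSMUSG00000026678; chromosome 1, 169655501 to 169695813, plus strand), which encodes a regulator that shuts off G protein signals in mural cells, had the highest level per length among the members. It had 454, 325 and 470.2 CPM in old samples 1, 2 and 3, against 330.5, 248 and 275 CPM in young samples 1, 2 and 3. Only old sample 2 and young sample 1 overlapped, by a narrow margin. The log2 fold change was 0.55 (SE 0.24; unadjusted p = 0.0504 and adjusted p = 0.888, edgeR), positive in all 14 alternative settings and at an unadjusted p under 0.05 in 5 of them. Its relatives Rgs4 and Rgs2 averaged 20.1 ± 17.2 CPM and 43.3 ± 32.4 CPM in old cells, against 5.14 ± 4.51 CPM and 141 ± 118 CPM in young cells (SD, n = 3 each). Both overlapped between the ages.

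**Figure D3:**
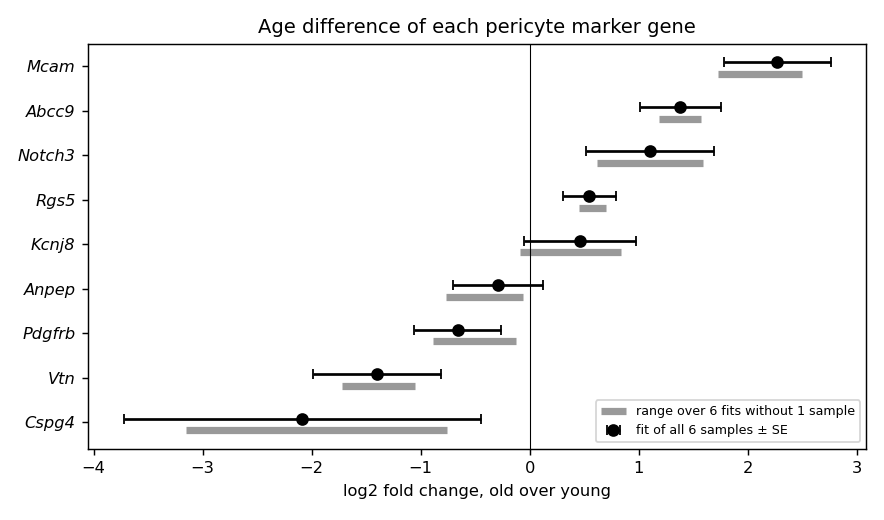
Log2 fold change of old over young cells (horizontal axis) for each gene: points with bars are the edgeR value ± SE from all 6 samples, and grey bars the range over 6 fits that each leave out 1 sample. Mcam (2.27) and Abcc9 (1.38) stay above 0 and Vtn (−1.40) below 0 in every such fit, while the range of Kcnj8 crosses 0.

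Surface and matrix proteins made up the other members. Vtn (ENSMUSG00000017344; chromosome 11, 78499091 to 78502324, plus strand) had 9.35, 24.2 and 29.2 CPM in old samples 1, 2 and 3, against 59.8, 49.8 and 56.0 CPM in young samples 1, 2 and 3. The young samples lay close together and above every old one. The means were 20.9 ± 10.3 CPM in old and 55.2 ± 5.02 CPM in young cells (SD, n = 3 each), a ratio of 0.379. The log2 fold change was −1.40 (SE 0.59; unadjusted p = 0.0410 and adjusted p = 0.888, edgeR). The direction held in all 14 alternative settings, with an unadjusted p under 0.05 in 8 of them.

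Anpep (ENSMUSG00000039062; chromosome 7, 79821803 to 79861059, minus strand) encodes aminopeptidase N, or CD13, which fibroblasts and myeloid cells also carry. It had 75.6, 68.4 and 156 CPM in old samples 1, 2 and 3, against 157, 94.7 and 115 CPM in young samples 1, 2 and 3. Old sample 3 was level with young sample 1, and the log2 fold change was −0.29 (SE 0.41; unadjusted p = 0.499 and adjusted p = 0.965, edgeR). It was −0.77 without old sample 3 and −0.065 without young sample 1. Enpep, a related aminopeptidase of pericytes, had 9.35, 1.67 and 6.44 CPM in old samples 1, 2 and 3, against 32.1, 18.4 and 40.8 CPM in young samples 1, 2 and 3. Its groups did not overlap, with a log2 fold change of −2.39 (SE 0.88; unadjusted p = 0.0242 and adjusted p = 0.888, edgeR), and the unadjusted p was under 0.05 in 12 of the 14 alternative settings.

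Cspg4 (ENSMUSG00000032911; chromosome 9, 56865033 to 56899870, plus strand) encodes NG2, a proteoglycan of pericytes and oligodendrocyte precursors. It had 0, 6.68 and 3.08 CPM in old samples 1, 2 and 3, against 30.5, 5.79 and 5.22 CPM in young samples 1, 2 and 3. In old sample 1 the count of 0 allows up to 3 counts, or 0.224 CPM, for counting error only. Young sample 1 stood apart, and the log2 fold change of −2.09 (SE 1.64; unadjusted p = 0.235 and adjusted p = 0.936, edgeR) was −0.76 without it. Higd1a and Higd2a, relatives of Higd1b, a mitochondrial gene with no row here, averaged 1.54 ± 1.16 CPM and 10.1 ± 4.38 CPM in old cells, against 1.26 ± 0.711 CPM and 33.7 ± 15.1 CPM in young cells (SD, n = 3 each). Higd2a did not overlap between the ages and had an unadjusted p = 0.0419 and an adjusted p = 0.888 in edgeR, with an unadjusted p under 0.05 in 9 of the 14 alternative settings.

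Fibroblast markers were measured beside the members with lower levels in old cells. Of 12 tested fibroblast markers, 10 had a negative log2 fold change, 7 lay wholly lower in old samples at an unadjusted p under 0.05, and 0 were called by edgeR after adjustment. Over all genes tested, 6.44% lay wholly lower and 2.7% were lower at that p. The fibroblast sum was 3472 to 5324 CPM in old and 6467 to 9376 CPM in young samples. It was highest in young sample 1, where Pdgfrb, Cspg4, Anpep and Vtn were also highest. Vtn was lower in all old samples, as was the sum, while Pdgfrb, Anpep and Cspg4 overlapped between the ages. Anpep had 156 CPM in old sample 3 and 157 CPM in young sample 1, at sums of 4704 and 9376 CPM. Pdgfrb had 120 CPM in old sample 1 and 117 CPM in young sample 2, at sums of 3472 and 7232 CPM. Dpt, the matrix protein dermatopontin, was at 0 in every old sample and in young sample 1, and had 4.77 and 8.06 CPM in young samples 2 and 3. Col1a1, a chain of type I collagen, averaged 545 ± 153 CPM in old and 1532 ± 389 CPM in young cells (SD, n = 3 each). Ptgds, prostaglandin D synthase, went the other way and overlapped, at 123, 1750 and 896 CPM in old samples 1, 2 and 3, against 297, 212 and 215 CPM in young samples 1, 2 and 3. Its log2 fold change was 1.94 (unadjusted p = 0.0258, edgeR), and 1.08 without old sample 2. Of 12 macrophage markers, 11 had a negative log2 fold change, but 0 were lower at an unadjusted p under 0.05 in edgeR and all overlapped, with sums of 826 to 1628 CPM in old and 592 to 3851 CPM in young samples. The remaining one, the mannose receptor gene Mrc1, averaged 611 ± 173 CPM in old and 405 ± 45.1 CPM in young cells (SD, n = 3 each), with a log2 fold change of 0.59 (unadjusted p = 0.0468, edgeR) and an unadjusted p under 0.05 in 6 of the 14 alternative settings. Dpt, Ptgds and Mrc1, and the sample pairs given for Anpep and Pdgfrb, were singled out after their values were seen. Ptprc, the gene of CD45, had 31.0, 30.7 and 62.9 CPM in old samples 1, 2 and 3, against 0.993, 57.4 and 72.7 CPM in young samples 1, 2 and 3. In young sample 1, where Ptprc was lowest, Mrc1 had 401 CPM, and which cells Mrc1 came from was not tested. Oligodendrocyte and Schwann cell markers summed to 17.5 to 166 CPM in old and 46.1 to 94.0 CPM in young samples, and Olig1 and Olig2 of that list have no row. The part of these cells in the levels of Pdgfrb, Vtn, Anpep and Cspg4 was not tested.

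**Figure D4:**
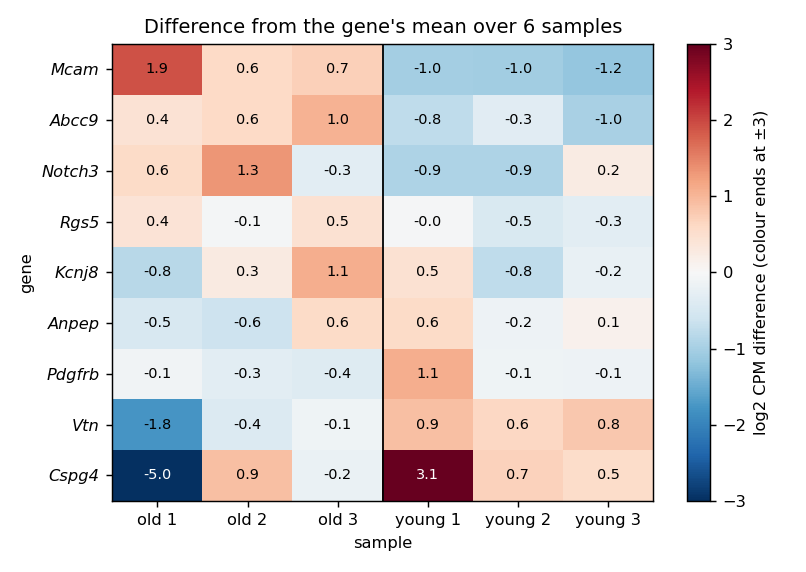
Each cell gives the log2 CPM of a gene (rows) in a sample (columns, old left of young) minus that gene's mean over the 6 samples. No sample is high or low for all 9 genes: young sample 1 is highest for 4 of them and old sample 3 for 3.

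Within a sample the 9 genes did not rank together. Young sample 1 held the highest level of 4 members, old sample 3 of 3, and old samples 1 and 2 of 1 each, while young samples 2 and 3 held none. Old sample 1 held the lowest level of 3 members, Kcnj8, Cspg4 and Vtn, and the highest of Mcam. The summed level of the members was 1062, 954 and 1243 CPM in old samples 1, 2 and 3, against 1085, 684 and 768 CPM in young samples 1, 2 and 3. These sums overlap, and Rgs5 alone took 34.1% to 42.8% of the members' scaled counts in old and 30.5% to 36.3% in young samples. The median log2 fold change of the 9 members was 0.46, beside 0.02 over all genes tested, with 5 positive and 4 negative. It was −0.086 without old sample 3. In both fits Kcnj8 was the middle member, so the median was the value of Kcnj8 alone.

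Per length, the order of the members was led by Rgs5 in both ages. Levels were divided by the kilobases of exon in GENCODE M21, which does not allow for any bias of the amplification toward 1 end of a transcript. In old cells, Rgs5 had 91.6 ± 17.5, Kcnj8 51.2 ± 30.9, Mcam 31.9 ± 17.3 and Anpep 24.2 ± 11.8 CPM per kilobase (SD, n = 3). Pdgfrb followed at 19.6 ± 2.02, Abcc9 at 15.4 ± 3.41, Vtn at 10.3 ± 5.08, Notch3 at 8.88 ± 4.80 and Cspg4 at 0.273 ± 0.280 CPM per kilobase. Every neighbour in that order overlapped with the next but Notch3 and Cspg4. In young cells, Rgs5 had 62.6 ± 9.22, Kcnj8 37.2 ± 15.6, Pdgfrb 31.0 ± 16.8, Anpep 29.6 ± 7.70 and Vtn 27.2 ± 2.47 CPM per kilobase (SD, n = 3). Mcam at 6.60 ± 0.368, Abcc9 at 5.89 ± 1.36, Notch3 at 4.13 ± 2.10 and Cspg4 at 1.16 ± 1.21 CPM per kilobase came after them. There Rgs5 stood clear of Kcnj8, Vtn clear of Mcam and Notch3 clear of Cspg4, and the other neighbours overlapped. Prox1, the master factor of lymphatic identity, had 133 ± 30.9 CPM per kilobase in old and 108 ± 4.10 CPM per kilobase in young cells (SD, n = 3 each).

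**Figure D5:**
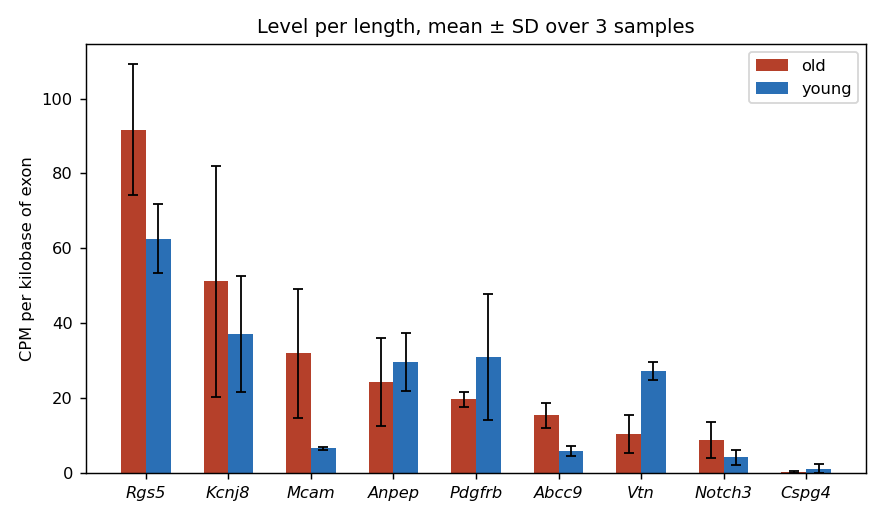
Level of each member in CPM per kilobase of exon (vertical axis), bars for old and young cells with mean ± SD over 3 samples. Rgs5 is highest in both ages, and Vtn takes a lower place among the members in old cells than in young cells.

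Other genes of brain and meningeal pericytes were measured beside the members. Of 24 such genes that are no members, 23 had a row, 20 passed the filter, and 11 of these were positive and 9 negative, with a median log2 fold change of 0.08. At an unadjusted p under 0.05, 0 were higher and 1 lower, which was Enpep. Their summed level was 510 to 721 CPM in old and 652 to 906 CPM in young samples, which overlap. Zic1, a transcription factor, had 146 to 171 CPM in old and 126 to 261 CPM in young samples, and Steap4, a metalloreductase, 16.9 to 117 CPM in old and 80.5 to 152 CPM in young samples. Atp13a5, a transporter restricted to brain pericytes, had 3.29, 12.4 and 0.244 CPM in old samples 1, 2 and 3, against 0, 0.152 and 0 CPM in young samples 1, 2 and 3, too low for the filter. Cox4i2 was at most 0.145 CPM in old and 2.43 CPM in young samples, and Ndufa4l2 reached 6.21 CPM in old and 5.52 CPM in young samples. These 5 were singled out after their values were seen. The members Pdgfrb, Rgs5, Kcnj8 and Abcc9 had counts in every sample, as did Notch3, Mcam, Anpep and Vtn. Counts alone do not tell which cells they came from.

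The samples held 14285794 to 20886836 estimated counts in old and 15733100 to 21043945 in young cells, with 17074 to 17995 genes detected in old and 18086 to 18949 in young samples. Mitochondrial ribosomal RNA took 16.0% to 21.9% of counts in old and 15.7% to 16.5% in young samples. The lymphatic marker Lyve1 averaged 1483 ± 95.2 CPM in old and 1149 ± 168 CPM in young cells (SD, n = 3 each), and Pecam1, which encodes CD31, 611 ± 107 CPM in old and 374 ± 46.5 CPM in young cells. Apart from Cspg4, no member had fewer than 125 counts in any sample.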

How the data were processed

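RNA from sorted meningeal lymphatic endothelial cells was linearly amplified and sequenced, per the labels' protocols. FastQC, Salmon and the build mm10 are named in the submitters' processing notes, without their roles. The authors deposited estimated counts per gene, which were whole numbers, so rounding changed nothing; their annotation and strandedness are not stated.

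Groups came from the labels. The test was edgeR (version 4.0.16, under R 4.3.3), with filterByExpr (minimum count 10, minimum total 15), TMM scaling and a robust quasi-likelihood fit on age, two-sided, with Benjamini-Hochberg adjustment at 0.05. The filter left 15394 genes and removed 7570. Standard errors are the log2 fold change divided by the square root of F. CPM are counts per 1000000 of the library size after TMM scaling. Alternatives used DESeq2 1.42.0, limma 3.58.1, other scalings and filters, a replicate block, and fits without each sample. The procedure was tested on simulated data. With 3 samples a group, an exact permutation test cannot go below p = 0.1.

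The members and gene lists were chosen with earlier results of these data known. All members are named; other genes are the members of a list with the smallest p or those that define a cell type, or are said to be singled out later. Not all genes so chosen are described.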

Additional observations from a re-analysis of the deposited data

How the results depend on the processing

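Over 14 alternative settings, Abcc9, Mcam, Notch3 and Rgs5 had a positive and Vtn, Pdgfrb, Anpep and Cspg4 a negative log2 fold change in all; Kcnj8 was reversed to −0.086 without old replicate 3 and ran from −0.086 to 0.84 over the fits without single samples. DESeq2 called 130 of 15394 genes (66 higher, 64 lower), 2 of them members. It counted 1374 genes, or 9.13%, at an unadjusted p under 0.05. Limma-voom called 3 genes (2 higher, 1 lower). Without a filter, 1543 genes had an unadjusted p under 0.05. With library size as the only scaling, the median of all genes was −0.12, and Abcc9, Mcam and Vtn were at 1.25, 2.11 and −1.52. The replicate numbers are shared by the ages, and same-numbered samples correlated at 0.08, 0.05 and −0.01 in their deviations. Between samples of different number the correlation ran from −0.0945 to 0.0593. With 3 samples an age, these values cannot tell whether a number marks a shared batch. With the replicate block the count of members lower at an unadjusted p under 0.05 was 0, as Vtn missed it, and 712 genes passed that level.

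Leaving out each sample in turn gave 0 to 1 genes called (0 to 1 higher), 696 to 1396 genes at an unadjusted p under 0.05, 3 to 5 members without overlap, 0 to 1 members lower at that p, and a median log2 fold change of the members of −0.086 to 0.67. The median was −0.086, a reversal, without old replicate 3, where it was the value of Kcnj8. The count of members without overlap was 5 without old sample 2 or 3, where 24.3% and 22.9% of all genes did not overlap, against 12% with all samples. The count of members higher at an unadjusted p under 0.05 was 2 or 3 over all settings, Rgs5 or Notch3 being the third. The share of all genes at that p, in either direction, ran from 4.24% to 9.13% over the settings. Vtn missed an unadjusted p of 0.05 in edgeR without old sample 1 or 2 and without young sample 1, 2 or 3. Ptprc, at −0.07 in all samples, was 1.10 by limma-voom, 0.82 with the replicate block and between −0.64 and 0.50 without single samples. The cause of these shifts was not tested. Depth limits Cspg4 most, with 0 to 492 counts a sample.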

Other observations

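Foxf2, a transcription factor of brain pericytes, had 38.2, 7.05 and 0.293 CPM in old samples 1, 2 and 3, against 2.11, 0.355 and 2.75 CPM in young samples 1, 2 and 3. The value in old sample 1, where smooth muscle markers were also highest, stood apart from the others.

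The 5 genes outside the lists whose log2 CPM was most like the mean log2 CPM of the 9 members over the 6 samples were Dnajc10, Sord, Gdap10, Ppp1r37 and Actr10, with Pearson r of 0.98, 0.98, 0.97, 0.96 and 0.96 among 6742 genes of at least 20 CPM. These values describe only 6 libraries of unequal depth, carry no p, and are the extremes of many genes compared. The mean itself was led by Cspg4, which ranged from −5.01 to 3.07 log2 units around its own mean. The correlation of each member with the mean of the others ran from −0.55 for Mcam to 0.87 for Kcnj8.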
